A study of Mus musculus with 8 samples.

Results

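The genes described here are 56 developmental transcription factors outside the Hox clusters, taken from the Zic, Otx, Tbx, Pax, Nkx, Lhx, Dlx, Sox, Fox, Gata, Irx, Pitx, Msx and Olig families and the genes Six2 and Six3. They were read as gene rows of the deposited expression table and kept where at least 2 of the 8 libraries lay above the floor of the row. Of the 56, 44 were kept, out of 18051 gene rows that met the same condition: 20 known for the forebrain and neural tube, 21 for heart, limb, skeleton, kidney and pharynx, and 3 for endoderm. Of the other 12, 10 lay above the floor in 1 library (Zic5, Pax1, Pax3, Nkx2-2, Lhx8, Dlx2, Sox2, Sox11, Foxd3 and Foxf1), Foxa2 lay at the floor in every library, and Dlx6 was not analysed here.

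RNA was sequenced from bone marrow of mouse acute myeloid leukaemia, with 2 libraries in each of 4 groups. The Ezh1-null tamoxifen group carries Ezh1-/- with Ezh2 deleted, and the Ezh1-null oil group Ezh1-/- with Ezh2 kept. The Ezh1-present tamoxifen group carries Ezh1+/+ with Ezh2 deleted, and the Ezh1-present oil group Ezh1+/+ with Ezh2 kept. The genotype labels write the kept and deleted Ezh2 alleles as +/+ and -/-, while the study design calls them flox/flox and Δ/Δ. All groups share the C57BL/6 strain, the word Moz in the sample titles, which is not spelled out further, and c-kit+ leukaemia cells as the stated material. The mice received 5 intraperitoneal doses of tamoxifen (10 mg/kg each day, dissolved in corn oil), and marrow of femur and tibia was taken 7 days after tamoxifen or after corn oil alone. Tamoxifen and Ezh2 deletion always go together, and each Ezh1 genotype may stand for its own leukaemia, so neither pair of causes can be told apart. The labels do not say that the libraries of a group came from separate mice, so p-values measure the spread between libraries, which may be technical.

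Ezh1 and Ezh2 are the alternative catalytic subunits of Polycomb repressive complex 2, which methylates histone H3 at lysine 27. Genes for developmental transcription factors of other tissues are textbook targets of this complex, often with CpG-rich promoters, and are normally silent in blood cells. Many of them act in the embryo as master regulators that give a tissue its identity, such as Otx2 for the forebrain and midbrain or Pitx1 for the hindlimb.

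The deposited values are log2 normalized read counts, with the smallest set to a normalized count of 1 (the floor), and each gene centred on its median over the 8 libraries. Centring removes the level of a gene, but where at least 2 libraries share the lowest value of a row that value is the floor, and the normalized count can be read back. This held for 29 of the 44 members. For the other 15, values are log2 relative to the gene's own median and say nothing of its level. In Ezh1-null tamoxifen libraries 4 of the 29 lay at the floor in both libraries, against 19 in Ezh1-null oil, 6 in Ezh1-present tamoxifen and 10 in Ezh1-present oil libraries. At least 1 library of the group lay at the floor for 12 of the 29 in Ezh1-null tamoxifen, against 26 in Ezh1-null oil, 19 in Ezh1-present tamoxifen and 23 in Ezh1-present oil libraries. A single read was worth 0.746 to 1.24 normalized counts, and 68.3% to 75.7% of low values fitted whole reads to a tolerance of 0.01, 86.2% to 94.6% of those at even numbers. Limits against a group at the floor therefore use 3 read pairs, or 6 reads, per library. They cover only counting error, and only in that group. Counts of the other group are taken as read, so folds given against these limits are not lower bounds. Total depth per library is unknown. A read was worth most in the Ezh1-null oil libraries, at 1.24 and 1.14 normalized counts. Over all rows with a known floor, these libraries also held the fewest low values above it, 784 and 822, against 1132 to 1274 in the others. The floor counts were not made over all genes, so they are not shown to be particular to the members.

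Ezh1 (gene 14055) lay at -1.61 and -1.55 in Ezh1-null tamoxifen, -1.75 and -1.94 in Ezh1-null oil, 1.55 and 1.63 in Ezh1-present tamoxifen, and 1.71 and 1.66 in Ezh1-present oil libraries, on the log2 scale relative to its median. Ezh2 (gene 14056) lay at -0.53 and -0.56 in Ezh1-null tamoxifen, against -0.12 and -0.03 in Ezh1-null oil libraries. With Ezh1 present it lay at 0.09 and 0.03 in tamoxifen, against 0.25 and 0.23 in oil libraries. Ezh2 was thus lower in all 4 tamoxifen libraries than in the oil libraries of the same Ezh1 genotype, but neither difference passed the test (log2 change -0.47 ± 0.08, adjusted p = 0.0554, and -0.18 ± 0.08, adjusted p = 0.293). A gene's summed value cannot show whether single exons are gone. For none of the 11 markers of immature myeloid cells and leukaemia did 2 or more libraries tie at the floor. A lone library at the floor could not be seen.

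One library stood apart. In Ezh1-present oil replicate 1, 54 genes exceeded 20 normalized counts and 10 times every other library, against 0 to 6 such genes in each of the other libraries. Many of them are known from brain and glia: Ptprz1, a receptor phosphatase of glia, had 2152 normalized counts there and at most 3.33 elsewhere. Of 13 neural and glial genes, a list added after this was seen, the mean log2 value was 4.25 in that library and between -0.91 and 0.26 in the other 7. Among the listed members, Sox2, the neural stem cell factor, had 255 normalized counts there and lay at the floor in every other library. Sox9, a factor of cartilage and glia, had 182 normalized counts there, 1.75 in Ezh1-present oil replicate 2 and the floor elsewhere. Nkx2-2 at 24.9 and Sox11 at 16.5 normalized counts were also above the floor in that library alone. Where a result named below rests on this library, that is stated or the value without it is given.

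**Figure D1:**
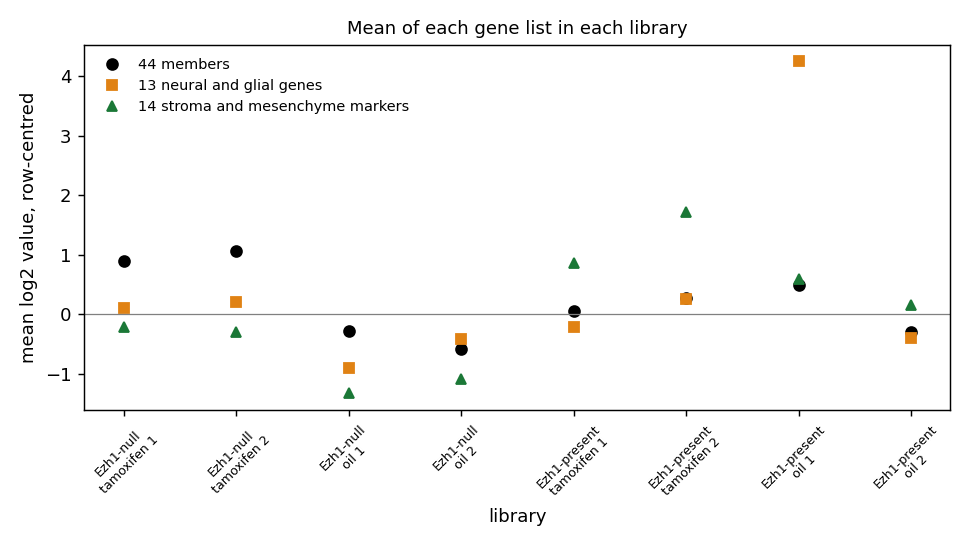
Mean log2 value, centred on each gene's median, of the 44 members (circles), 13 neural and glial genes (squares) and 14 stroma and mesenchyme markers (triangles) in each of the 8 libraries. The neural and glial genes reach 4.25 in Ezh1-present oil replicate 1, while the members are highest in the 2 Ezh1-null tamoxifen libraries, at 0.89 and 1.07.

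The members as a whole were highest in the Ezh1-null tamoxifen libraries. Of the 44, 7 had their highest value in Ezh1-null tamoxifen replicate 1 and 15 in replicate 2, against 4 and 2 in the Ezh1-null oil libraries, 5 and 6 in the Ezh1-present tamoxifen libraries, and 4 and 1 in the Ezh1-present oil libraries. The same count was not made over all genes. Their mean log2 value was 0.89 and 1.07 in the Ezh1-null tamoxifen libraries, against -0.29 and -0.58 in the Ezh1-null oil libraries. With Ezh1 present the means were 0.06 and 0.27 in tamoxifen libraries, against 0.50 and -0.30 in oil libraries, where the libraries overlap. Fewer cells with a transcript and less transcript per cell cannot be told apart in bulk RNA.

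**Figure D2:**
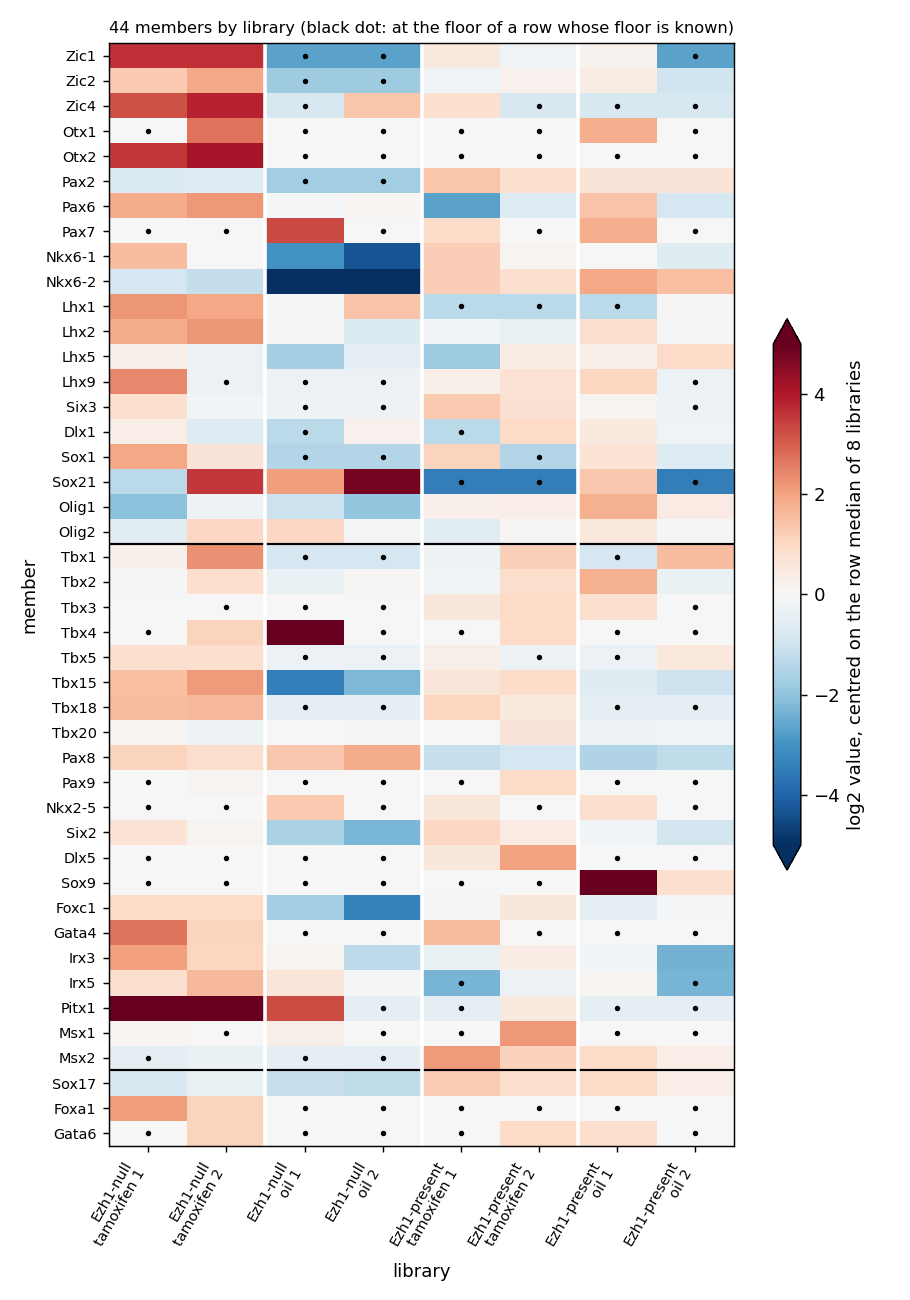
Heat map of the 44 members (rows, grouped from top to bottom as forebrain and neural tube, heart to pharynx, and endoderm) in the 8 libraries (columns), coloured by log2 value centred on the row median, with black dots at the floor for the 29 members whose floor is known. The Ezh1-null oil columns hold most dots and the darkest blue, and the Ezh1-null tamoxifen columns hold the highest value of 7 and 15 members.

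The first comparison asks what tamoxifen, and with it loss of Ezh2, did in leukaemia cells that lack Ezh1. Of the 44 members, 9 rose and 0 fell at an adjusted p under 0.05 (limma across all 18051 genes, Benjamini-Hochberg), where 3.1% of all genes rose and 0.299% fell. A gene that passes this test is called below. Of the 20 neural members 6 rose (Otx2, Zic1, Zic2, Nkx6-1, Nkx6-2 and Lhx2), of the 21 heart, limb and kidney members 3 rose (Tbx15, Tbx18 and Foxc1), and of the 3 endoderm members 0 passed. A log2 change above 0 was found in 34 of the 44, against 48.3% of all genes. Both tamoxifen libraries lay above both oil libraries in 25 members and below them in 1, against 24.5% and 24.8% of all genes. The members' median log2 change was 1.11, against 0 over all genes, but 21 of the 44 had a group wholly at the floor, and with these set to the limit that 6 reads allow the median was 0. The shares over all genes are not matched for level, and Ezh1-null oil libraries held the fewest low values above the floor. These differences from all genes are therefore not shown to be particular to the members, here or in other comparisons with these libraries.

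**Figure D3:**
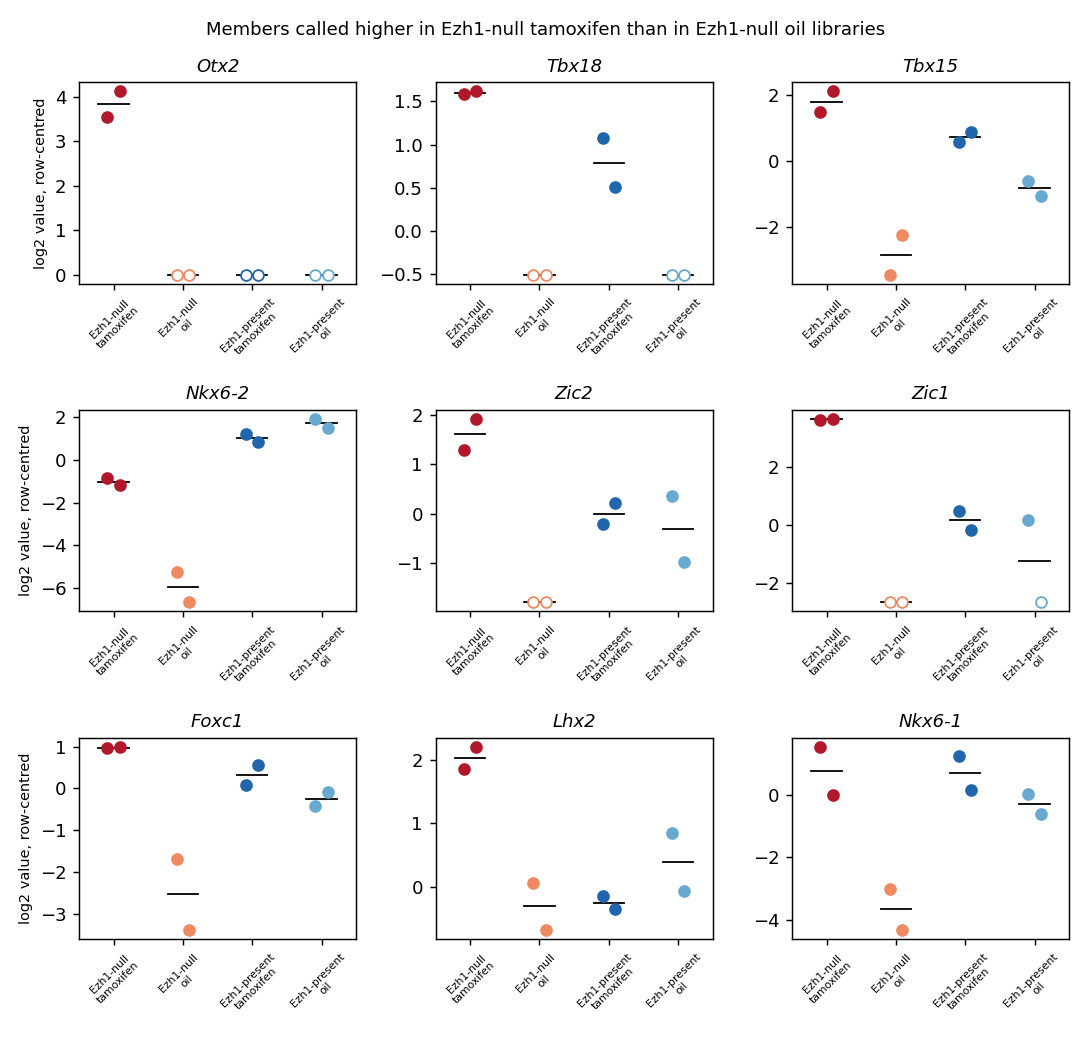
Log2 value relative to the gene's median in each library, 2 points per group with the mean as a line, for the 9 members called higher in Ezh1-null tamoxifen than in Ezh1-null oil libraries, with open circles at the floor. Both Ezh1-null tamoxifen points lie above both Ezh1-null oil points in all 9 panels, while Nkx6-2 is higher still in the 4 Ezh1-present libraries.

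Otx2 (gene 18424, mm10 chr14:48658184-48667506), the homeobox regulator of forebrain and midbrain, had 11.7 and 17.4 normalized counts in Ezh1-null tamoxifen libraries (11 and 16 reads) and lay at the floor in the other 6 libraries. It was the only 1 of the 44 members called in 3 comparisons. Against Ezh1-null oil libraries set to 6 reads it was 2.0-fold higher, and its fitted log2 change was 3.83 ± 0.19 (SE, adjusted p = 0.00387). It met the condition of 2 libraries above the floor only through the group where it is high. Because the other 3 groups lay at the floor and cannot vary there, its fitted spread rests on the 2 Ezh1-null tamoxifen libraries, and a fit without 1 of them has no spread left in Otx2. The call was lost with a variance trend, where the adjusted p was 0.103, the highest of the 14 alternatives that gave a value (lowest 0.00676), and when the fit held no Ezh1-present library, where it was 0.0522.

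The Zic genes encode zinc finger factors of the dorsal neural tube and the forebrain midline, and lie in pairs, Zic1 beside Zic4 on chromosome 9 and Zic2 beside Zic5 on chromosome 14. Zic1 (gene 22771, chr9:91360345-91365799) had 79.1 and 80.2 normalized counts in Ezh1-null tamoxifen libraries and lay at the floor in both Ezh1-null oil libraries. Its rise was 11.2-fold over Ezh1-null oil libraries set to 6 reads (fitted log2 change 6.32 ± 0.90, adjusted p = 0.0340). In Ezh1-present libraries Zic1 had 8.96 and 5.66 normalized counts after tamoxifen, against 7.12 and the floor after oil, so it was above the floor in 3 of the 4 Ezh1-present libraries. The 7.12 lay in Ezh1-present oil replicate 1, the library that stood apart. Zic4 (gene 22774, chr9:91368972-91389348) had 15.6 and 24.9 normalized counts in Ezh1-null tamoxifen libraries, against the floor and 4.57 in Ezh1-null oil libraries. Both tamoxifen values were above both oil values, yet the change did not pass the test (3.21 ± 0.86, adjusted p = 0.139). GENCODE annotates the Zic1 gene as overlapping Zic4 on the opposite strand, and the library kit is not stated to keep strand, so reads of the pair cannot be fully told apart.

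Zic2 (gene 22772, chr14:122475384-122480328) had 8.50 and 13.1 normalized counts in Ezh1-null tamoxifen libraries and lay at the floor in both Ezh1-null oil libraries. Those are 8 and 12 reads, only 1.48-fold over Ezh1-null oil libraries set to 6 reads (fitted log2 change 3.40 ± 0.48, adjusted p = 0.0337). Counting error in the tamoxifen libraries is not covered by that fold. Its neighbour Zic5 had 4 reads in Ezh1-null tamoxifen replicate 2 and none above the floor in the other 7 libraries, too few to compare.

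The Nkx6 genes, homeobox factors of the ventral neural tube, stood at their lowest in Ezh1-null oil libraries and not in the Ezh1-present groups. Nkx6-2 (gene 14912, chr7:139579376-139582797), which also acts in oligodendrocytes, lay at -0.86 and -1.18 in Ezh1-null tamoxifen libraries, against -5.25 and -6.68 in Ezh1-null oil libraries (log2 change 4.95 ± 0.49, adjusted p = 0.0129). In Ezh1-present libraries it lay higher, at 1.23 and 0.86 after tamoxifen, against 1.92 and 1.5 after oil. GENCODE annotates Inpp5a as overlapping Nkx6-2 on the opposite strand, and Inpp5a stayed between -0.41 and 0.53 in all 8 libraries. These are values of the whole Inpp5a gene, and the part of its reads in the Nkx6-2 values was not tested. Nkx6-1 (gene 18096, chr5:101659197-101664711), also a factor of pancreatic beta cells, lay at 1.53 and -0.02 in Ezh1-null tamoxifen, against -3.02 and -4.33 in Ezh1-null oil libraries (4.43 ± 0.74, adjusted p = 0.0482). In Ezh1-present libraries it lay at 1.24 and 0.14 after tamoxifen, against 0.02 and -0.62 after oil.

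Lhx2 (gene 16870, chr2:38339281-38369728), a LIM homeobox factor of forebrain and eye, lay at 1.86 and 2.21 in Ezh1-null tamoxifen, against 0.06 and -0.68 in Ezh1-null oil libraries (log2 change 2.35 ± 0.39, adjusted p = 0.0474). The 4 Ezh1-present libraries were between -0.36 and 0.85, below both Ezh1-null tamoxifen libraries.

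Among the members of heart, limb and skeleton, Tbx15 (gene 21384, chr3:99253760-99354260), a T-box factor of limb and skin mesenchyme, lay at 1.49 and 2.12 in Ezh1-null tamoxifen, against -3.43 and -2.24 in Ezh1-null oil libraries (log2 change 4.64 ± 0.45, adjusted p = 0.0129). Tbx18 (gene 76365, chr9:87702800-87731260), a T-box factor of the epicardium and sinus node, had 4.25 and 4.35 normalized counts in Ezh1-null tamoxifen libraries and lay at the floor in Ezh1-null oil libraries. That is 4 reads in each tamoxifen library, so although it passed the test (fitted log2 change 2.11 ± 0.19, adjusted p = 0.0105) no fold can be given above the limit of 6 reads. With values under 3 reads raised to 3 its change was 0.21 and the call was lost. Foxc1 (gene 17300, chr13:31806646-31810635), a forkhead factor of mesenchyme that also acts in the niche cells of the marrow, lay at 0.96 and 1.00 in Ezh1-null tamoxifen, against -1.69 and -3.39 in Ezh1-null oil libraries (3.52 ± 0.56, adjusted p = 0.0436). In these 3 genes the Ezh1-null tamoxifen libraries were also above the 4 Ezh1-present libraries, which lay between the Ezh1-null groups for Tbx15 and Foxc1.

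The 35 members that were not called changed by log2 values between -2.37 and 5.05. Pitx1 (gene 18740, chr13:55825054-55831425), the hindlimb homeobox factor, had 114 and 132 normalized counts in Ezh1-null tamoxifen libraries, against 13.6 and the floor in Ezh1-null oil libraries. The oil libraries differed from each other, and the change of 5.05 ± 1.21 did not pass (adjusted p = 0.109). Six2, a factor of kidney progenitors (2.36 ± 0.41, adjusted p = 0.0540), and the neural factor Sox1 (2.77 ± 0.99, adjusted p = 0.236) also had both tamoxifen libraries above both oil libraries without passing. At the other end, Sox21, a factor of neural progenitors, had 4.25 and 125 normalized counts in Ezh1-null tamoxifen libraries, against 47.1 and 302 in Ezh1-null oil libraries. Its libraries varied more within each group than between them. Tbx4, a hindlimb and lung factor, had 45.9 normalized counts in Ezh1-null oil replicate 1 and at most 2.18 in any other library, so its change rests on 1 library.

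The number of called members depended on single libraries. Leaving out either of the Ezh1-null tamoxifen libraries gave 2, Otx2 and Foxa1. Both genes were above the floor in that group alone, so these calls come from a residual spread of 0 and say nothing of stability. Leaving out Ezh1-null oil replicate 1 gave 6, and leaving out its replicate 2 gave 4. Leaving out either of the Ezh1-present tamoxifen libraries gave 5, and either of the Ezh1-present oil libraries 6. Leaving out an Ezh1-present library changes the fitted spread and none of these fold changes. Of the 8 such fits, Tbx15 and Nkx6-2 stayed called in 6, Tbx18 in 5, Zic1, Zic2 and Foxc1 in 2, and Lhx2 and Nkx6-1 in 0. A fit of the 4 Ezh1-null libraries by themselves called 4 members (Zic1, Tbx5, Tbx18 and Pax2). The median change of the members stayed between 0.85 and 1.36 over these and the other alternatives.

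Other lists moved in the same comparison. Of 54 further developmental transcription factors with at least 2 libraries above the floor, out of 109 listed, 3 rose and 0 fell (Tfap2c, Dlx4 and Pou4f1), and 43 had a change above 0, with a median of 0.56. Of 14 stroma and mesenchyme markers 2 rose, Alpl, the alkaline phosphatase of bone-forming cells, at 3.20 ± 0.24 (adjusted p = 0.00701) and Kitl, the ligand of c-kit, at 1.84 ± 0.26 (adjusted p = 0.0341). The mean log2 value of these stroma markers was -0.21 and -0.31 in Ezh1-null tamoxifen, against -1.33 and -1.09 in Ezh1-null oil libraries, with 1 and 2 of the 14 at the floor, against 3 and 2. The 8 endothelial markers had a mean of -0.19 and 0.07 in Ezh1-null tamoxifen, against -1.15 and -0.71 in Ezh1-null oil libraries, and 0 of them passed the test, although in 5 both tamoxifen libraries lay above both oil libraries. The 13 neural and glial genes had a mean of 0.10 and 0.21 in Ezh1-null tamoxifen, against -0.91 and -0.42 in Ezh1-null oil libraries, with 5 and 3 of the 13 at the floor, against 5 and 4. The 11 T and NK cell markers had a mean of 0.45 and 0.48 in Ezh1-null tamoxifen, against -0.78 and -1.08 in Ezh1-null oil libraries, and 1 of them (Gzmb) rose. In Ezh1-present tamoxifen libraries the stroma means were 0.86 and 1.72 and the endothelial means 0.82 and 2.15. The members' mean was 0.06 and 0.27 there, with Pax2, Sox17 and Msx2 called higher there than in Ezh1-null tamoxifen libraries. The part of the cells of any of these lists in the members' rise was not tested.

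Promoters are shown for Otx2, the member with most calls, for Zic1 and its neighbour Zic4, and for 2 further risers, to show how they differ in CpG content. Each is the 250 bases upstream of the start listed first for the gene in a table of RefSeq promoters (GRCm38.p6), 5′ to 3′ on the strand of the gene, with every CG dinucleotide in capitals. They lie at chr14:48667645-48667894 (minus strand) for Otx2, chr9:91365769-91366018 (minus) for Zic1, chr9:91368722-91368971 (plus) for Zic4, chr7:139582798-139583047 (minus) for Nkx6-2 and chr13:31806396-31806645 (plus) for Foxc1.
Otx2: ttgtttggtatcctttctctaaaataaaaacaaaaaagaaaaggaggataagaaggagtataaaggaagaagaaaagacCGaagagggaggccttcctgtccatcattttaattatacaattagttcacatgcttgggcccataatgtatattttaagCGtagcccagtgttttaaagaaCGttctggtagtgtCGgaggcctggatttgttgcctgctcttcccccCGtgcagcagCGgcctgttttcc
Zic1: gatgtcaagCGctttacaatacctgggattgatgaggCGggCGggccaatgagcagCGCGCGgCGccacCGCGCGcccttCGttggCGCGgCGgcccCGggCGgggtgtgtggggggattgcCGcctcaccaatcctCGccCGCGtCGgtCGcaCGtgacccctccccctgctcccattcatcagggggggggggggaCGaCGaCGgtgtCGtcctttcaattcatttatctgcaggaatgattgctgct
Zic4: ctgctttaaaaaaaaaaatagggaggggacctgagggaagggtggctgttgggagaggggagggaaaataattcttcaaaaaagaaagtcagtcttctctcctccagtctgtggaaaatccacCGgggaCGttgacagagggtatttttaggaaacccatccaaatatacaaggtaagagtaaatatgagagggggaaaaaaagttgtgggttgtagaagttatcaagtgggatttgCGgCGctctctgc
Nkx6-2: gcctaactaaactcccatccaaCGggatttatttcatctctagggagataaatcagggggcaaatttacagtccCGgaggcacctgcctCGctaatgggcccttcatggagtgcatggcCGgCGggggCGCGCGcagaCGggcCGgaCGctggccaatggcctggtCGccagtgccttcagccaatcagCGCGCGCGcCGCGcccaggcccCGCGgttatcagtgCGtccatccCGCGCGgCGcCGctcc
Foxc1: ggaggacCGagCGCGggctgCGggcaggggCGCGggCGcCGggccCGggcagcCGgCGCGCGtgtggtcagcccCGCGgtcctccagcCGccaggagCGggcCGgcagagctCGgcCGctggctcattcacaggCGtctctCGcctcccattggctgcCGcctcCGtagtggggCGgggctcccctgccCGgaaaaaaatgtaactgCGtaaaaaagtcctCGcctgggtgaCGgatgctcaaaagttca

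The CG dinucleotide, which reads the same on both strands, occurred 6 times in the Otx2 window, 27 in Zic1, 4 in Zic4, 26 in Nkx6-2 and 29 in Foxc1. The windows shown thus included CpG-rich and CpG-poor ones. The CpG-poor windows, of Otx2 and Zic4, rest on the start taken, and Zic4 was not called. They do not show that the promoter in use is CpG-poor. The RefSeq span of Zic4 begins further upstream, at 91365631, so its window stands for a later start and is not set against that of Zic1. A window was held for 29 of the 44 members, of which 72.4% had at least 10 CG, with a median of 17. Of 13719 genes of the fit with a window 63.2% had as many (median 14), and of all 27025 windows 38.2% (median 6). Otx2 has 4 starts in the table and the one listed first was used.

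The second comparison sets tamoxifen against oil in cells that keep Ezh1. Here 0 of the 44 members were called by limma, where 0.903% of all genes were (0.637% higher, 0.266% lower), and 6 had an unadjusted p under 0.05, all higher. A change above 0 was found in 25 members, against 51.9% of all genes, and the median was 0.22, against 0.01 over all genes. With the 14 members that had a group at the floor set to their limit the median was 0. The groups did not overlap in 11 members upward and 4 downward, against 28.5% and 25.3% of all genes. The 20 neural members had a median of -0.38 and the 21 heart, limb and kidney members a median of 0.51. The mean log2 value of the neural members was -0.12 and -0.15 in Ezh1-present tamoxifen libraries. In oil it was 0.67 in replicate 1, the library that stood apart, and -0.37 in replicate 2, so the libraries overlap. For heart, limb and kidney the means were 0.18 and 0.61 after tamoxifen, against 0.32 and -0.30 after oil, which overlap as well. Markers of other cells had larger median changes, at 1.01 for the 14 stroma markers, 1.66 for the 8 endothelial markers, 3.53 for the 11 T and NK cell markers (Klrd1 and Nkg7 called) and 3.35 for 7 erythroid markers. The part of these cells in the members' values was not tested.

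The member nearest to the threshold was Tbx18, with 2.99 and 2.02 normalized counts in Ezh1-present tamoxifen libraries and the floor in both oil libraries (fitted log2 change 1.30 ± 0.19, adjusted p = 0.0586). Tbx15 lay at 0.60 and 0.90 in Ezh1-present tamoxifen, against -0.60 and -1.04 in Ezh1-present oil libraries (1.57 ± 0.45, adjusted p = 0.155). Both genes thus pointed the same way as without Ezh1. The change was smaller for Tbx15, while the few reads of Tbx18 do not allow its changes to be ranked. The difference between the genotypes did not pass the test for Tbx15 (3.07 ± 0.64, adjusted p = 0.148) or Tbx18 (0.81 ± 0.27, adjusted p = 0.280). Sox9 had the largest fitted change, -4.16 ± 2.07 (adjusted p = 0.329), and it rests on the 182 normalized counts of Ezh1-present oil replicate 1. Without that library 0 members were called and the members' median change was 0.50. The median was 0.39 without Ezh1-present tamoxifen replicate 1, and 0 without tamoxifen replicate 2 or without oil replicate 2. In each of these fits a group rests on a lone library assumed to vary like the other groups. Dlx5 without tamoxifen replicate 1 and Sox9 without oil replicate 2 had a residual spread of 0, so their calls in those fits say nothing of stability.

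**Figure D4:**
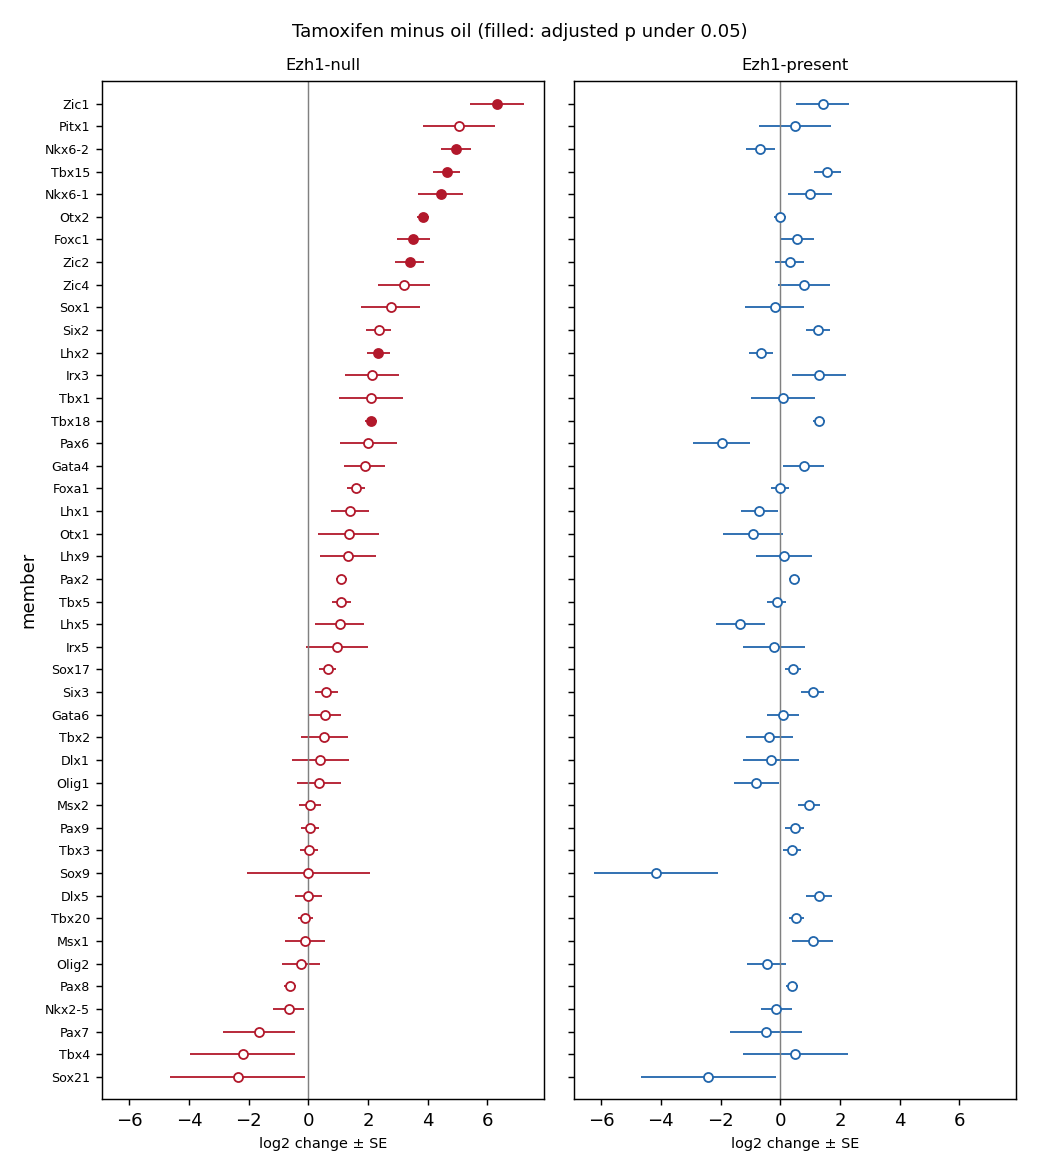
Log2 change ± SE from tamoxifen minus oil for each of the 44 members, without Ezh1 (left) and with Ezh1 (right), members in the same order in both panels, filled points where adjusted p was under 0.05. On the left 34 members lie above 0 and 9 are filled, and on the right 25 lie above 0 and 0 are filled.

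Whether the tamoxifen change differed between the Ezh1 genotypes was tested directly. Otx2 was the 1 member called, with a fitted difference of 3.83 ± 0.27 on the log2 scale (adjusted p = 0.0167), where 0.321% of all genes were called higher and 0.155% lower. The call was lost in 10 of 13 alternatives, with adjusted p between 0.0190 and 0.278, among them the fit without Ezh1-present oil replicate 1 (0.077). In 2 of the 3 alternatives that kept it an Ezh1-null tamoxifen library was left out, so that Otx2 had no spread. As both Ezh1-present groups were at the floor, no fold can be given for Otx2 with Ezh1, and the fitted size is no bound. Nkx6-2 had the largest difference at 5.61 ± 0.69 (adjusted p = 0.0615), since it was 4.95 higher after tamoxifen without Ezh1 and 0.67 lower with Ezh1. The difference for Zic1 was 4.90 ± 1.27 (adjusted p = 0.202), and 3.48 ± 0.38 (adjusted p = 0.124) without Ezh1-present oil replicate 1. Of the 44 members 33 had a difference above 0, against 49.7% of all genes, with a median of 1.13, against -0.0029 over all genes, or 0.66 without Ezh1-present oil replicate 1. For the other 43 members the difference did not pass the test.

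The third comparison sets Ezh1-null against Ezh1-present cells treated with oil, where Ezh2 is kept. Of the 44 members 1 was called higher and 6 lower, where 12.5% of all genes were higher and 12.4% lower. The 6 lower members are 13.6% of the 44, near the share of all genes, and the 1 higher member is 2.27%. A change above 0 was found in 13 members, against 45.7% of all genes, with a median of -0.41, against -0.04 over all genes. In 23 members a group lay wholly at the floor, and with these set to their limit the median was 0. The groups did not overlap in 3 members upward and 13 downward, against 31% and 34.7% of all genes.

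The 6 lower members were Nkx6-2, Nkx6-1, Foxc1, Tbx15, Pax2 and Sox17. Nkx6-2 lay at -5.25 and -6.68 in Ezh1-null oil, against 1.92 and 1.5 in Ezh1-present oil libraries (log2 change -7.67 ± 0.49, adjusted p = 0.00239), and was called in all 15 alternatives. Nkx6-1 changed by -3.38 ± 0.74 (adjusted p = 0.0296), Foxc1 by -2.29 ± 0.56 (adjusted p = 0.0400) and Tbx15 by -2.02 ± 0.45 (adjusted p = 0.0317). This comparison and the first share the Ezh1-null oil libraries, so a low value there enters both. Pax2 (gene 18504, chr19:44757394-44837869), a factor of kidney and of the border of midbrain and hindbrain, lay at the floor in both Ezh1-null oil libraries, against 5.34 and 5.25 normalized counts in Ezh1-present oil libraries (fitted -2.40 ± 0.19, adjusted p = 0.00296). That is 6 reads in each Ezh1-present oil library, at the limit itself, so no fold is given. Sox17 (gene 20671, chr1:4490928-4496413), a factor of endoderm, endothelium and fetal blood stem cells, lay at -1.15 and -1.27 in Ezh1-null oil, against 0.95 and 0.34 in Ezh1-present oil libraries (-1.86 ± 0.28, adjusted p = 0.0110).

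Pax8 (gene 18510, chr2:24420560-24475566), a factor of thyroid and kidney, was the 1 member higher, at 1.35 and 1.84 in Ezh1-null oil, against -1.52 and -1.29 in Ezh1-present oil libraries (log2 change 3.0 ± 0.21, adjusted p = 0.00262). It was called in all 15 alternatives. Of 7 B cell markers 5 were also higher, with a list mean of 2.62 and 2.04 in Ezh1-null oil, against -1.32 and -1.98 in Ezh1-present oil libraries, and their part in the Pax8 difference was not tested. Sox21 had 47.1 and 302 normalized counts in Ezh1-null oil, against 28.1 and the floor in Ezh1-present oil libraries, and did not pass the test (adjusted p = 0.208), with the 28.1 in the library that stood apart.

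Without Ezh1-present oil replicate 1 the members' median change was 0. In that fit Sox9 was called on 2 reads in Ezh1-present oil replicate 2, with the floor in all other libraries and no residual spread. Nkx6-2, Pax2, Sox17 and Pax8 kept their calls there (adjusted p 0.0204, 0.0269, 0.0488 and 0.0224). Those of Nkx6-1 (0.130), Foxc1 (0.121) and Tbx15 (0.136) were lost, with log2 changes of -3.06, -2.46 and -1.79 that stayed near the full values. With values under 3 reads raised to 3 the change of Pax2 was -0.51 and its call was lost.

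Of the 14 stroma markers, 0 were higher and 4 lower (Alpl, Sp7, Runx2 and Pdgfrb) in Ezh1-null than in Ezh1-present oil libraries, and of the 8 endothelial markers Tek and Cdh5 were lower. Foxc1 and Sox17 are also expressed in such cells. The part of stroma and endothelium in these falls was not tested. Of the 54 further developmental transcription factors 0 were higher and 7 lower, which is 12.96% of them, against 12.4% of all genes, with a median change of -0.82 over the list.

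The fourth comparison sets Ezh1-null against Ezh1-present cells after tamoxifen, where Ezh2 is deleted in both. Of the 44 members 6 were called higher and 3 lower, where 6.77% of all genes were higher and 5.44% lower. A change above 0 was found in 29, against 49.3% of all genes, and the groups did not overlap in 17 upward and 7 downward, against 30.7% and 31.8%. The median was 0.60, against -0.0023 over all genes, or 0.29 with the 9 members that had a group at the floor set to their limit and 0.27 without Ezh1-present tamoxifen replicate 1.

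Otx2 was called higher in Ezh1-null tamoxifen libraries, with the counts given above, while both Ezh1-present tamoxifen libraries were at the floor (adjusted p = 0.00278). With the latter set to 6 reads it was 2.74-fold higher. Pitx1 had 114 and 132 normalized counts in Ezh1-null tamoxifen, against the floor and 2.02 in Ezh1-present tamoxifen libraries (fitted log2 change 6.43 ± 1.21, adjusted p = 0.0342). Its adjusted p ran from 0.0112 to 0.987 over 15 alternatives, the call holding in 5. Lhx1 (gene 16869, chr11:84519379-84525534), a factor of kidney and head development, had 11.9 and 9.80 normalized counts in Ezh1-null tamoxifen libraries and was not above the floor in Ezh1-present tamoxifen ones (adjusted p = 0.0332). With the latter set to 6 reads it was 2.07-fold higher. In Ezh1-null oil libraries Lhx1 had 2.48 and 6.86 normalized counts, against the floor and 2.62 in Ezh1-present oil libraries.

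Lhx2 lay at 1.86 and 2.21 in Ezh1-null tamoxifen, against -0.15 and -0.36 in Ezh1-present tamoxifen libraries (log2 change 2.29 ± 0.39, adjusted p = 0.0285). Pax8 lay at 1.10 and 0.88, against -1.14 and -0.88 (2.00 ± 0.21, adjusted p = 0.0122), so it was higher in Ezh1-null cells after either treatment. Of the 7 B cell markers 4 were also higher here (Cd79a, Ebf1, Igll1 and Vpreb1), with a median change of 2.74 over the list, and their part was not tested. Foxa1 (gene 15375, chr12:57540632-57546121), a forkhead factor of endoderm, had 4.25 and 2.18 normalized counts in Ezh1-null tamoxifen libraries and lay at the floor elsewhere. Those are 4 and 2 reads, so no fold is given for its call (fitted 1.61 ± 0.31, adjusted p = 0.0354). Zic1 and Zic4 were also above both Ezh1-present tamoxifen libraries in both Ezh1-null ones and missed the threshold (3.48 ± 0.90, adjusted p = 0.0653, and 3.52 ± 0.86, adjusted p = 0.0593).

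The 3 lower members were Pax2, Sox17 and Msx2. Pax2 had 2.13 and 2.18 normalized counts in Ezh1-null tamoxifen, against 8.96 and 6.06 in Ezh1-present tamoxifen libraries (log2 change -1.78 ± 0.19, adjusted p = 0.0122). Sox17 lay at -0.79 and -0.34, against 1.28 and 0.87 (-1.64 ± 0.28, adjusted p = 0.0284). Msx2 (gene 17702, chr13:53466881-53472780), a factor of limb and skull bone, lay at the floor and at 1.09 normalized counts in Ezh1-null tamoxifen, against 5.97 and 3.03 in Ezh1-present tamoxifen libraries (-2.03 ± 0.37, adjusted p = 0.0318). That is the floor and 1 read, against 8 and 3 reads. Msx2 was not among the members called with values under 3 reads raised to 3. Of the stroma markers Sp7 and Runx2 and of the endothelial markers Cdh5 were also lower, while all 8 endothelial markers had a change below 0, and their part was not tested.

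**Figure D5:**
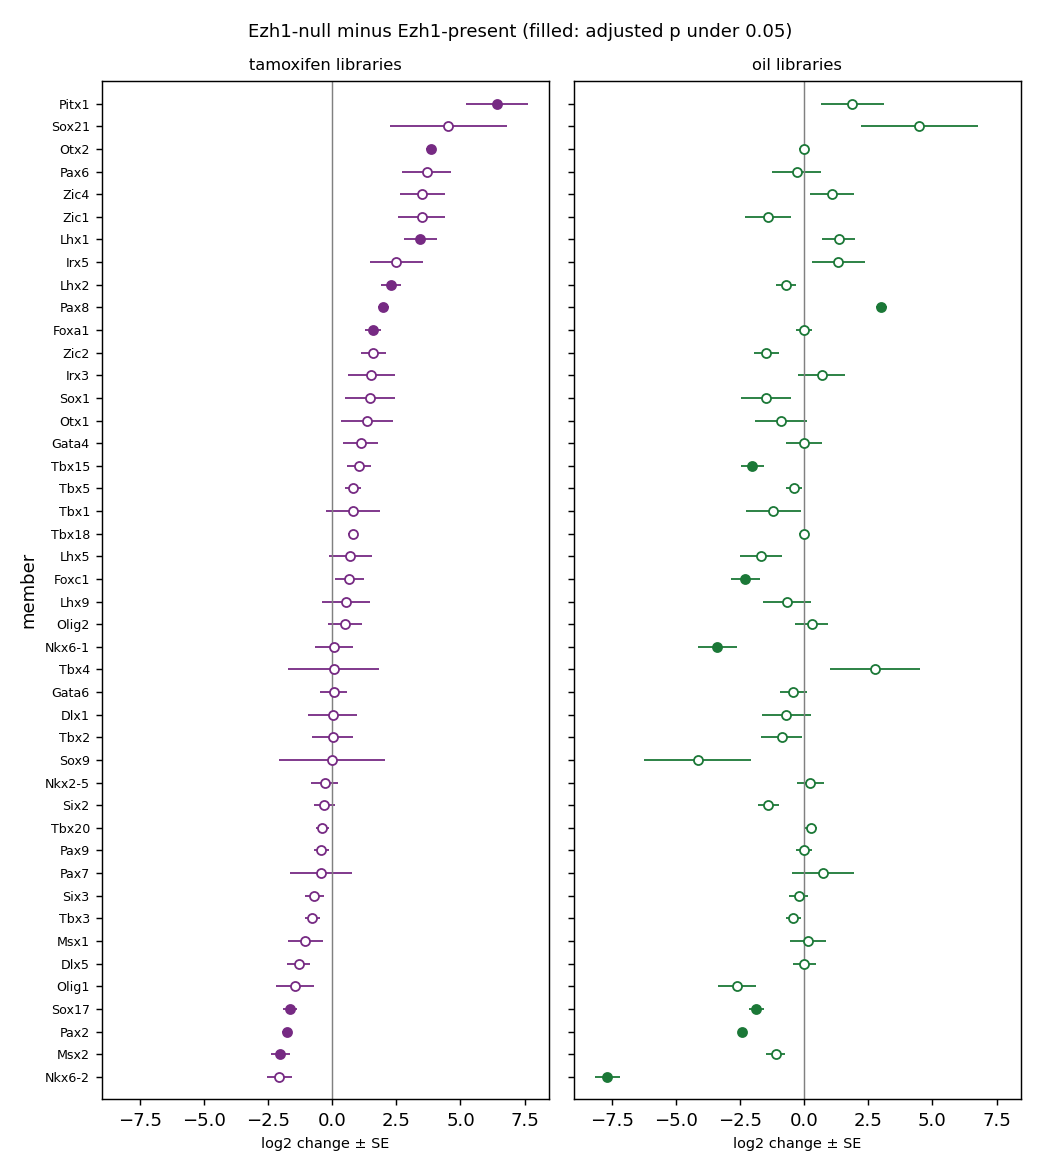
Log2 change ± SE from Ezh1-null minus Ezh1-present for each of the 44 members, after tamoxifen (left) and after oil (right), members in the same order in both panels, filled points where adjusted p was under 0.05. On the left 6 filled members lie above 0 and 3 below, and on the right Pax8 is filled above 0 and 6 members are filled below.

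In the fourth comparison 2 members, Otx2 and Foxa1, were called when either of the Ezh1-null tamoxifen libraries was left out, again with a residual spread of 0 in both genes. Leaving out Ezh1-present tamoxifen replicate 1 gave 6 and leaving out its replicate 2 gave 4 (Otx2, Pax2, Pax8 and Msx2). With only the 2 tamoxifen groups in the fit, limma called 0 members and 27 of all genes, with 5051 genes at an unadjusted p under 0.05. Over the 4 groups, the members thus fell into patterns that differ. Otx2 and Foxa1 were above the floor in Ezh1-null tamoxifen libraries alone, Dlx5 in Ezh1-present tamoxifen libraries alone and Sox9 in Ezh1-present oil libraries alone, and each of these passed the condition of 2 libraries through that group. Zic1, Zic2, Tbx15, Foxc1 and Nkx6-1 were lowest in Ezh1-null oil libraries, with Ezh1-present libraries above both of those or level with them at the floor. After oil with Ezh1, Zic1 was above the floor only in replicate 1, the library that stood apart. Pax8 was higher in both Ezh1-null groups, while Pax2, Sox17 and Nkx6-2 were higher in both Ezh1-present groups. Members lying close together did not always move alike: Tbx2 and Tbx4, 48.1 kb apart, changed by 0.53 and -2.20 in the first comparison, and Six2 and Six3, 58.1 kb apart, by 2.36 and 0.61.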

How the data were processed

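Total RNA libraries of bone marrow (TruSeq kit, 1 µg RNA) were analysed from 2 tables that the authors deposited. The authors' normalized columns passed a raw-data filter (20th to 100th percentile), per the file headers. Judged from their values, the deposited columns are log2 normalized counts, raised to at least 1 and then centred on each gene's median. The authors also deposited fold changes as log2, as a ratio and as a signed fold (recorded as a score), which were not used. The genome build is mm10 per the submitters' processing notes. The aligner, read counter and scaling method were not given in the sources used here. Rows and coordinates are those of the larger table (31574 rows), and the smaller table repeats 4576 of them with identical values.

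A floor was taken where at least 2 libraries tied at the row minimum (tolerance 2e-06). The 18051 rows with at least 2 libraries above it were fitted with limma 3.58.1 in R 4.3.3 (1 coefficient per group, all 8 libraries, no block, empirical Bayes without a trend, residual degrees of freedom 4, prior degrees of freedom 1.24), with Benjamini-Hochberg adjustment over all rows and a threshold of 0.05. How this fit behaves for rows with a group wholly at the floor was not tested. Since centring removes the level, a variance trend is an alternative only. A group at the floor has no spread, so its p may be too small. Python 3.11.15 with pandas 2.3.3 and matplotlib 3.10.9 served for tables and plots. Promoters come from RefSeq (GRCm38.p6) and overlaps from GENCODE. The members, gene lists, tests and the rule for named genes (every called member, with examples of the rest by role) were chosen with earlier results of these data known, and promoters beyond that of Otx2 were chosen after values were seen. Alternatives left out each library or changed the filter, normalization, floor, spread or block.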

Additional observations from a re-analysis of the deposited data

Results flagged for a closer look

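The tamoxifen change of Otx2 differed between the Ezh1 genotypes by a fitted 3.83 on the log2 scale, tested as an interaction (adjusted p = 0.0167), with 3 of its 4 groups at the floor. The call was lost in 10 of 13 alternatives. In 3 further members both tamoxifen libraries lay on one side of both oil libraries without Ezh1 and on the other side with Ezh1, and the interaction did not pass the test. These were Nkx6-2 (difference 5.61 ± 0.69, adjusted p = 0.0615), Lhx2 (2.99 ± 0.55, adjusted p = 0.118) and Pax8 (-1.0 ± 0.30, adjusted p = 0.245). Lhx2 changed by 2.35 without Ezh1 and by -0.65 with Ezh1, and Pax8 by -0.61 without Ezh1 and by 0.39 with Ezh1. Without Ezh1-present oil replicate 1, the library that stood apart, the changes with Ezh1 were -0.19 for Lhx2, -0.46 for Nkx6-2 and 0.28 for Pax8.

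In addition, 3 members outside the fit had reads in Ezh1-present oil replicate 1 and lay at the floor in the other 7 libraries. Sox2 had 286.5 reads there, Nkx2-2 had 28 and Sox11 had 18.5, each above the limit of 6 reads. The same library holds the neural and glial genes described above.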

How the results depend on the processing

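No called result changed direction under any alternative run. For tamoxifen without Ezh1 the count of called members was 9, and 2 without a filter on low values, 4 with only the groups compared, 2 to 6 with 1 library left out, and 6 to 11 under the other alternatives. For tamoxifen with Ezh1 it was 0, and 0 to 4 with 1 library left out. For Ezh1 loss in oil it was 7, and 4 with quantile normalization, without a filter or with only the groups compared, and 5 to 7 with 1 library left out. For Ezh1 loss after tamoxifen it was 9, and 3 without a filter, 0 with only the groups compared, 2 to 8 with 1 library left out, and 13 with quantile normalization. For the difference between tamoxifen changes it was 1, and 0 with a variance trend, with at least 4 libraries above the floor, without a filter, with values under 3 reads raised to 3, or with the replicate block, and 0 to 2 with 1 library left out. The members' median change for Ezh1 loss after tamoxifen, 0.60, lay between 0.27 and 0.76 over 15 alternatives, and that for tamoxifen with Ezh1, 0.22, between 0 and 0.50.

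With the replicate number as a block the counts were 6, 0, 7, 7 and 0 in that order of comparisons. The labels name nothing that same-numbered libraries share. Correlations of same-numbered deviations over all genes in the fit lay between -0.06 and 0.08. Such a value cannot exclude a pairing that touches only part of the genes. A member at the floor is undetected at this depth, not absent.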
